A study of Mus musculus with 8 samples.

Results

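The 47 genes described here encode the machinery that copies DNA and admits a cell to S phase, and they were measured by RNA-seq in embryonic mouse brains. They were taken as the rows of a count table of 34866 genes whose Ensembl identifiers carry the listed symbols, and all 47 were found. The mice belong to the Ohia line, in which homozygotes for mutant alleles of Sap130 and Pcdha9 are a model of hypoplastic left heart syndrome (HLHS), a defect in which the left heart does not grow properly. Sap130 is a subunit of a histone deacetylase repressor complex and Pcdha9 is a cell adhesion protein of neurons. The 3 mutants were m/m at both genes and the 5 controls were +/m at both, so no wild-type embryo was included and each control carried a mutant copy of either gene. At E13.5 the samples were mutant 260-1 and controls 260-2 and 260-3. At E14.5 they were mutants 195-3 and 303-2 and controls 195-2, 195-6 and 303-3. The middle number of a sample title was read as its litter, which the labels do not define, and strain background and sex are not given in the sources used here. No other treatment is named, and p-values measure the spread between these 8 samples.

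Replication is prepared in G1, when the origin recognition complex, Cdc6 and Cdt1 load the MCM helicase onto origins and geminin (Gmnn) restrains Cdt1 outside G1. Cyclin E with its kinase and the E2F factors open S phase, Cdc45 and GINS turn the loaded helicase into a moving one, and polymerases follow with the PCNA clamp, its loader and the single-strand binding protein RPA. In the embryonic brain these genes are expressed by progenitors that cycle in the ventricular and subventricular zones, and they are switched off as neurons leave the cycle. In bulk tissue, fewer cycling cells and less RNA per cycling cell cannot be told apart.

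Many of these genes are textbook targets of E2F, whose binding sites resemble 4 words of 8 letters: TTTCCCGC, TTTCGCGC, TTTGCCGC and TTTGGCGC. Promoter windows of 300 bases, from 250 before to 50 after the transcription start (RefSeq, GRCm38.p6), were at hand for 38 of the 47 genes and were searched for these words on either strand. Of the 38 genes, 15 (39.5%) held at least 1 word, against 3.32% of 16455 protein-coding genes with a window and 2.26% of the 32851 windows counted. Both backgrounds leave out 1 chromosome, on which no member lies. The members with a word were Cdc6, Cdt1, E2f2, Gins3, Lig1, Mcm3, Mcm5, Mcm6, Mcm7, Orc1, Pola1, Pold1, Pold3, Pole2 and Rfc3. The windows below show Mcm5 and Mcm6, whose words overlap on opposite strands, Cdt1 and E2f2, which were lower at E14.5, and Rpa3 and Slbp, which were higher in mutants and hold none of the words. Slbp was lower at E14.5 as well. Capitals mark the words, and for E2f2 the first of 2 windows is shown.
Mcm5, chr8:75109259-75109558, plus strand: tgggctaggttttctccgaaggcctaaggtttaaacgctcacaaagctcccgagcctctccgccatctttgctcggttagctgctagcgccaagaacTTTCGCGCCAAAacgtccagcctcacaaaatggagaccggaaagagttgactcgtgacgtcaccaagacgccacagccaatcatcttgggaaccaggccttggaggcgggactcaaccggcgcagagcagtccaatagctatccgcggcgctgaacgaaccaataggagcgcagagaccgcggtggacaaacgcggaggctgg
Mcm6, chr1:128359656-128359955, minus strand: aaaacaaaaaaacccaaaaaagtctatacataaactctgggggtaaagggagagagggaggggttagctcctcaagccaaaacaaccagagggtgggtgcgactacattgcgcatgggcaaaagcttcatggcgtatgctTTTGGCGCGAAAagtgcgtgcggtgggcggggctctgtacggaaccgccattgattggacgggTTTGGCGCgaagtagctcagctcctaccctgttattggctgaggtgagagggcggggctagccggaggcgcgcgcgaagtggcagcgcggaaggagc
Cdt1, chr8:122567765-122568064, plus strand: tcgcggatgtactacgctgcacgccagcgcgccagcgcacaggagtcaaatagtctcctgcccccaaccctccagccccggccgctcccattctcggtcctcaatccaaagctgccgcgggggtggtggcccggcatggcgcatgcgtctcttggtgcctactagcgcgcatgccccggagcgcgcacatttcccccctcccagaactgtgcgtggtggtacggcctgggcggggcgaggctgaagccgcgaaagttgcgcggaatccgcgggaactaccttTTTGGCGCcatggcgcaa
E2f2, chr4:136172024-136172323, plus strand: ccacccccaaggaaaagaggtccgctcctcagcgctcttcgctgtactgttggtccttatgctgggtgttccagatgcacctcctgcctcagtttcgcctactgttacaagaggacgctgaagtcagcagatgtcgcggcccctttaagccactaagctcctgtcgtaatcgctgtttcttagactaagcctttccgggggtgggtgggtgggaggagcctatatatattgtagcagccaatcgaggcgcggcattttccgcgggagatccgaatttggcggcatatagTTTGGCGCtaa
Rpa3, chr6:8259092-8259391, minus strand: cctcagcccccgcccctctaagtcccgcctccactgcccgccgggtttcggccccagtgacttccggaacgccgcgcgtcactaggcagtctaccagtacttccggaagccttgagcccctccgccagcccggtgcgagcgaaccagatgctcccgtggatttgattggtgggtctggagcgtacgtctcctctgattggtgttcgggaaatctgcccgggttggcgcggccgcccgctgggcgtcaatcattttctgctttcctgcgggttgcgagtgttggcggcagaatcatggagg
Slbp, chr5:33652525-33652824, minus strand: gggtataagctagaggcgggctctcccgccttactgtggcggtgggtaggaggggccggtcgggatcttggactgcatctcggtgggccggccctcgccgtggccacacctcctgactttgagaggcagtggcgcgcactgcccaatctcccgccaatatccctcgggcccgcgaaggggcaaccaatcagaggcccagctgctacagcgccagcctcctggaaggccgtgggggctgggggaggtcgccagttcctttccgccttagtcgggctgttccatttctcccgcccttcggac
In Mcm5 a forward TTTCGCGC shares 4 bases with a reverse TTTGGCGC, and Mcm6 has such a pair and a further word nearer the start. The words of Cdt1 and E2f2 begin 32 and 39 bases after the start. A match is a description of the letters and not a measured site, and a window without one says only that these words are not in it.

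Library totals were between 36438282 and 47838448 counts, and each member had between 92 and 15257 counts in a library, so none was near the filter's minimum count of 10. All 47 members passed the filter on low counts. Sap130 was at 32.6 to 35.9 CPM (counts scaled to the TMM-adjusted library size) in the mutants and 46.8 to 52.1 CPM in the controls. Neuron genes were abundant in every library (a sum of 8320 to 11700 CPM over 17 genes). Libraries differed in genes of single brain regions. The sum of 15 Hox genes, which mark hindbrain and spinal cord, reached 0.429 CPM in mutant 260-1 and no more than 2.84 CPM in control 195-6, against 201 to 445 CPM in the other 6 libraries. The sum of 14 telencephalon genes was 296 CPM in mutant 195-3 and 648 CPM in mutant 303-2, against 1210 to 1440 CPM in the other 6. No gene of these lists was at 0 in every library. Counts of called genes are therefore also given without libraries 260-1, 195-6 and 195-3. The only mutant left there, 303-2, was itself low in telencephalon genes, so regional differences remained in that fit.

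**Figure D1:**
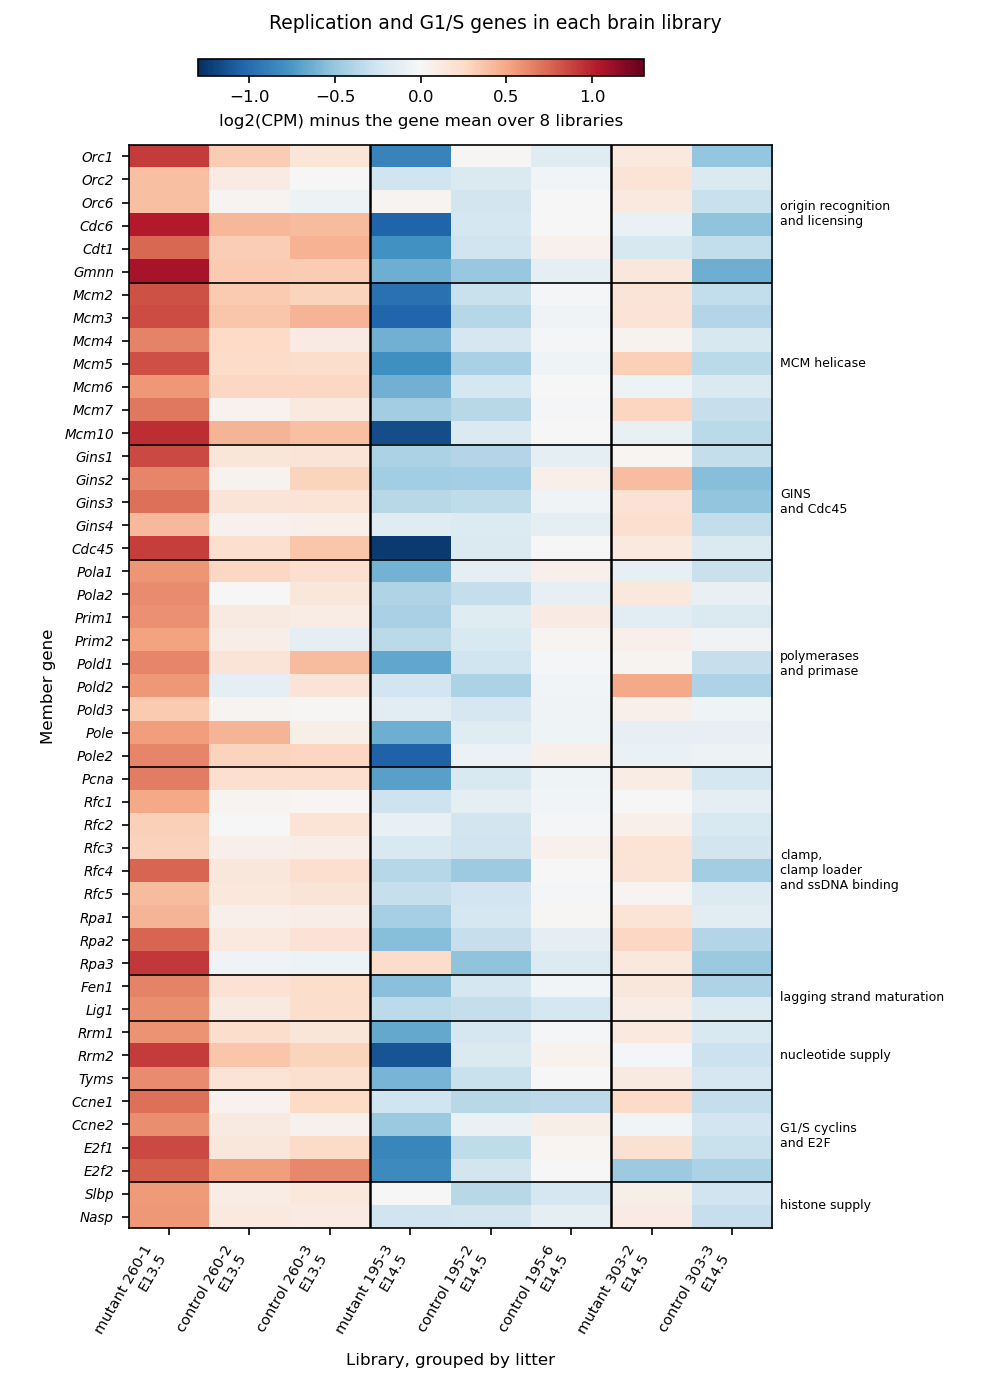
Level of each of the 47 genes (rows, grouped by role) in each of the 8 libraries (columns, grouped by litter), as log2 CPM minus the gene's mean over the 8 libraries. Mutant 260-1 is the highest library for all 47 genes and mutant 195-3 the lowest for 33.

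The replication genes ranked the libraries in much the same way. The 47 genes summed to 3212, 1510 and 2259 CPM in mutants 260-1, 195-3 and 303-2, against 2334 and 2357 CPM in controls 260-2 and 260-3, 1737 and 2019 CPM in controls 195-2 and 195-6, and 1740 CPM in control 303-3. The highest library was mutant 260-1 for 47 of 47 members, against 24% of the 17357 genes tested. The lowest was mutant 195-3 for 33 of 47, against 15.7% of genes. The mutant range thus enclosed the control range, and the level in mutant 260-1 was 1.28 (Orc6) to 4.41 (Cdc45) times that in mutant 195-3, with a median of 2.26 times.

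Scaled to transcript length, the most abundant members were the histone chaperone Nasp and the clamp Pcna. Nasp averaged 105 ± 29.8 CPM per kilobase in mutants and 88.3 ± 11.97 in controls (SD, n = 3 and 5). Pcna averaged 103 ± 45.8 CPM per kilobase in mutants and 94.6 ± 14.47 in controls. The lowest was Orc1, the largest subunit of the origin recognition complex, at 1.48 ± 0.841 CPM per kilobase in mutants and 1.26 ± 0.264 in controls.

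Comparing mutants with controls over all 3 litters, 4 of the 47 members passed the test and all 4 were higher in mutants: Rpa3, Slbp, Orc6 and Ccne1. None was lower and 43 did not pass. The members' 8.51% stands against 20.6% of all 17357 genes, 10.9% higher and 9.74% lower, so the share of members called was not above the background. The median log2 change of the 47 was 0.16, against -0.000517 over all genes, with 40 changes positive and 7 negative and a range from -0.19 (E2f2) to 0.73 (Rpa3). These values come from edgeR's quasi-likelihood F test with stage in the model and Benjamini-Hochberg adjustment over all genes, with calls at adjusted p under 0.05. The count depended on the libraries in the fit. Without mutant 195-3, the lowest library for 33 members, 28 of 47 were higher and 0 lower, against 14.3% of genes higher. Leaving out any of the other 7 libraries gave 2 to 5 members higher and 0 lower. The number of all genes higher varied in these fits as well. It ran from 632 of 17192 without control 195-2 to 1813 of 17270 without control 195-6. The median change was 0.32 without mutant 195-3, 0.01 without mutant 260-1 and 0.05 without mutant 303-2.

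Rpa3, the smallest subunit of RPA (ENSMUSG00000012483.4, chromosome 6, 8255936 to 8259173, minus strand, GRCm38), was at 36.2, 22.5 and 21.1 CPM in mutants 260-1, 195-3 and 303-2, against 18.5 and 18.2 CPM in controls 260-2 and 260-3, 13.3 and 16.9 CPM in controls 195-2 and 195-6, and 13.7 CPM in control 303-3. Every mutant lay above every control. The means were 26.6 ± 8.35 CPM in mutants (SD, n = 3) and 16.1 ± 2.49 CPM in controls (SD, n = 5), which gives a log2 change of 0.73, SE 0.11, adjusted p = 0.00464 by edgeR. It has the shortest transcript of the 47 (670 bases), and with an offset for transcript length and GC content the change was 0.49 (adjusted p = 0.00894, edgeR). Of its partners in the same trimer, Rpa1, which grips single-stranded DNA, had a value of 0.14 (SE 0.13) and Rpa2 one of 0.33 (SE 0.17) on the log2 scale, and neither passed. The ratio of Rpa3 to Rpa1 CPM was 0.411, 0.471 and 0.288 in mutants 260-1, 195-3 and 303-2, against 0.233 to 0.273 in the 5 controls, a ratio chosen after its values were seen.

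Slbp, which binds the stem-loop at the end of histone mRNAs (ENSMUSG00000004642.13, chromosome 5, 33634952 to 33652574, minus strand), was at 88.5, 60.1 and 63.5 CPM in mutants 260-1, 195-3 and 303-2, against 64.4 and 66.4 CPM in controls 260-2 and 260-3, 47.1 and 51.8 CPM in controls 195-2 and 195-6, and 50.3 CPM in control 303-3. In each litter the mutant was above its controls, while mutants 195-3 and 303-2 lay below the E13.5 controls. The means were 70.7 ± 15.5 CPM in mutants (SD, n = 3) and 56.0 ± 8.80 CPM in controls (SD, n = 5), which gives a log2 change of 0.36, SE 0.06, adjusted p = 0.00643 by edgeR. Rpa3 and Slbp passed with each of the 8 libraries left out in turn, with adjusted p from 0.00234 to 0.0221 for Rpa3 and from 0.00404 to 0.0354 for Slbp (edgeR). In the E14.5 samples alone, Slbp had an adjusted p of 0.0529.

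Orc6, a subunit of the origin recognition complex (ENSMUSG00000031697.12, chromosome 8, 85299632 to 85308278, plus strand), was at 55.3, 43.4 and 46.2 CPM in mutants 260-1, 195-3 and 303-2, against 43.4 and 40.4 CPM in controls 260-2 and 260-3, 35.8 and 42.4 CPM in controls 195-2 and 195-6, and 34.7 CPM in control 303-3. The lowest mutant and the highest control of E13.5 were both at 43.4 CPM to 3 digits, with the mutant just above, so the groups met without overlap. The means were 48.3 ± 6.23 CPM in mutants (SD, n = 3) and 39.4 ± 3.90 CPM in controls (SD, n = 5), which gives a log2 change of 0.31, SE 0.08, adjusted p = 0.0313 by edgeR. An exon of Orc6 overlaps one of Vps35 on the opposite strand by 171 bases, and the library kit does not mark strand. In all, 16 of the 47 members share exon sequence with a gene annotated there, and Nasp, Pcna and Tyms have named pseudogenes, so their reads may be divided uncertainly.

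Ccne1, cyclin E1 (ENSMUSG00000002068.16, chromosome 7, 38097984 to 38107534, minus strand), was at 19.2, 9.82 and 13.9 CPM in mutants 260-1, 195-3 and 303-2, against 12.1 and 13.99 CPM in controls 260-2 and 260-3, 9.15 and 9.25 CPM in controls 195-2 and 195-6, and 9.46 CPM in control 303-3. Mutant 195-3 was above its own litter's controls and below both E13.5 controls. The means were 14.3 ± 4.73 CPM in mutants (SD, n = 3) and 10.8 ± 2.16 CPM in controls (SD, n = 5), which gives a log2 change of 0.43, SE 0.12, adjusted p = 0.038 by edgeR. Orc6 lost its call in 6 of the 8 fits that left out a library (all but those without mutant 195-3 or control 195-6), and Ccne1 in 7 (all but that without mutant 195-3), with adjusted p up to 0.143 for Orc6 and 0.177 for Ccne1 (edgeR). Ccne2, the other E-type cyclin, was at 25.5, 11.98 and 16.3 CPM in mutants 260-1, 195-3 and 303-2, against 18.2 and 17.4 CPM in controls 260-2 and 260-3, 15.7 and 17.7 CPM in controls 195-2 and 195-6, and 14.1 CPM in control 303-3. Its log2 change was 0.09, SE 0.16, adjusted p = 0.713 by edgeR.

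**Figure D2:**
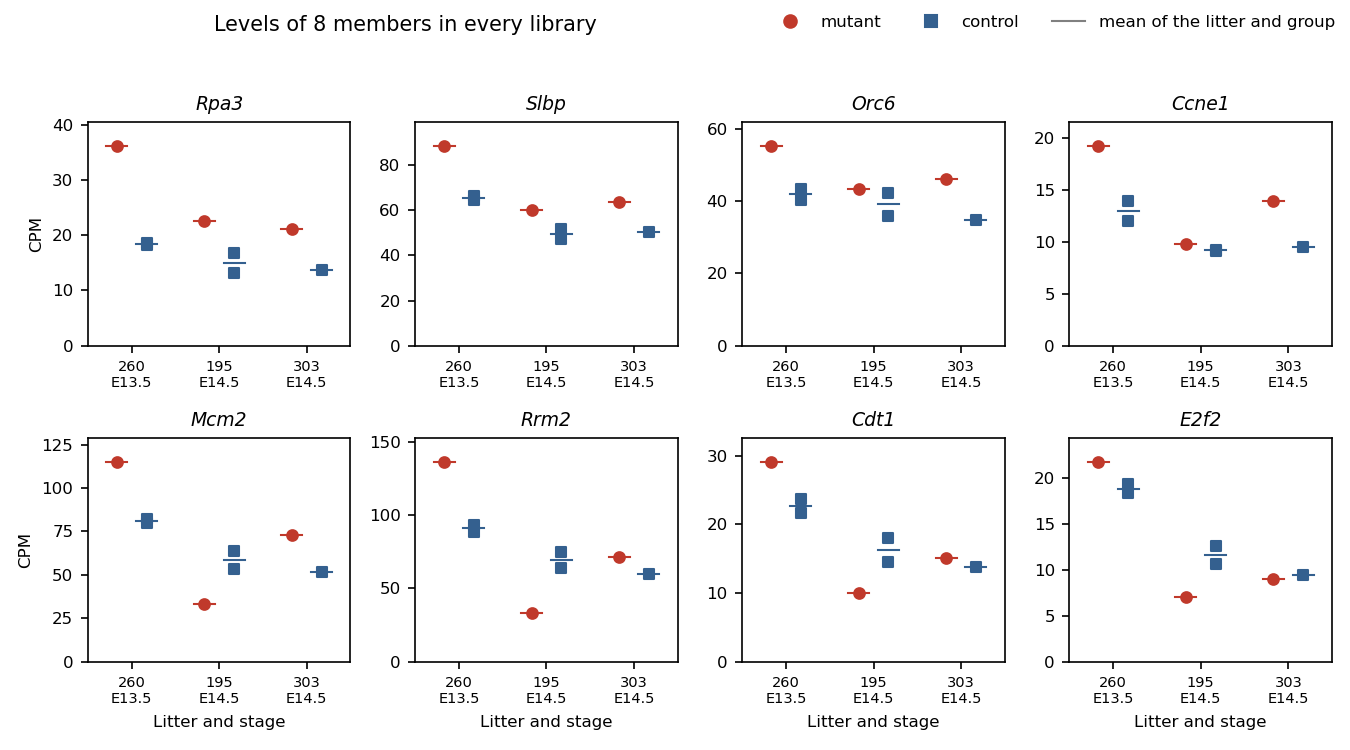
CPM of 8 members in every library, by litter and stage, with mutants as circles, controls as squares and a line at the mean of each litter and group. Rpa3, Slbp, Orc6 and Ccne1 (top) are higher in the mutant than in its litter's controls in 3 of 3 litters, while for Mcm2, Rrm2, Cdt1 and E2f2 (bottom) mutant 195-3 lies below its controls.

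In CPM, the SD over the 3 mutants was larger than that over the 5 controls for each of the 47 members. Among the licensing factors, Cdt1 was at 29.1, 10.02 and 15.1 CPM in mutants 260-1, 195-3 and 303-2, against 21.7 and 23.7 CPM in controls 260-2 and 260-3 and 13.9 to 18.1 CPM in the 3 controls of litters 195 and 303. Its inhibitor Gmnn was at 26.6, 8.19 and 14.05 CPM in mutants 260-1, 195-3 and 303-2, against 16.0 and 16.0 CPM in controls 260-2 and 260-3, 9.01 and 11.7 CPM in controls 195-2 and 195-6, and 8.17 CPM in control 303-3. The log2 changes in mutants were -0.05, SE 0.18, adjusted p = 0.855 for Cdt1 and 0.40, SE 0.19, adjusted p = 0.164 for Gmnn (edgeR). The ratio of Gmnn to Cdt1 CPM was 0.915, 0.818 and 0.932 in mutants 260-1, 195-3 and 303-2, against 0.741, 0.674, 0.621, 0.648 and 0.589 in controls 260-2, 260-3, 195-2, 195-6 and 303-3, a ratio chosen after its values were seen and given without a test. Every mutant was above every control in this ratio. Gmnn has the shorter transcript (1127 bases, against 2189 for Cdt1), and the median change over all genes was 0.22 in the tenth with the shortest transcripts and -0.18 in the tenth with the longest.

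The subunits of the MCM helicase, the ring that unwinds DNA ahead of the fork, followed one pattern. Mcm2 was at 115, 33.1 and 72.8 CPM in mutants 260-1, 195-3 and 303-2, against 82.0 and 79.7 CPM in controls 260-2 and 260-3, 53.1 and 63.7 CPM in controls 195-2 and 195-6, and 51.9 CPM in control 303-3. Mcm3 was at 90.2, 24.5 and 56.6 CPM in mutants 260-1, 195-3 and 303-2, against 64.5 and 68.2 CPM in controls 260-2 and 260-3, 38.6 and 48.4 CPM in controls 195-2 and 195-6, and 38.5 CPM in control 303-3. For both, the mutants held the highest and the lowest of the 8 values, and mutant 303-2 lay above its control. Mcm4 was at 70.0, 29.0 and 46.2 CPM in mutants 260-1, 195-3 and 303-2, against 53.6 and 48.2 CPM in controls 260-2 and 260-3, 38.4 and 44.2 CPM in controls 195-2 and 195-6, and 38.6 CPM in control 303-3. Mcm5 was at 113, 36.8 and 79.2 CPM in mutants 260-1, 195-3 and 303-2, against 75.1 and 74.6 CPM in controls 260-2 and 260-3, 47.7 and 61.4 CPM in controls 195-2 and 195-6, and 50.01 CPM in control 303-3. Mcm4 and Mcm5 repeated the order, with the E13.5 controls above the E14.5 controls. Mcm6 was at 125, 54.5 and 80.3 CPM in mutants 260-1, 195-3 and 303-2, against 102 and 102 CPM in controls 260-2 and 260-3, 71.8 and 84.7 CPM in controls 195-2 and 195-6, and 74.2 CPM in control 303-3. Mcm7 was at 232, 106 and 176 CPM in mutants 260-1, 195-3 and 303-2, against 149 and 158 CPM in controls 260-2 and 260-3, 113 and 142 CPM in controls 195-2 and 195-6, and 118 CPM in control 303-3. In mutant 303-2, Mcm6 exceeded its control by 0.11 and Mcm7 by 0.58 on the log2 scale. The log2 changes of mutants against controls lay between -0.01 (Mcm6, SE 0.14) and 0.33 (Mcm7, SE 0.17), with adjusted p from 0.192 to 0.961 by edgeR. Mcm10, which helps to start the helicase, ranged from 6.28 CPM in mutant 195-3 to 27.1 CPM in mutant 260-1.

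The other activators of the helicase divided in size. Cdc45, which differed most between mutants 260-1 and 195-3, was at 24.3, 5.51 and 14.2 CPM in mutants 260-1, 195-3 and 303-2, against 15.2 and 16.7 CPM in controls 260-2 and 260-3, 11.5 and 13.1 CPM in controls 195-2 and 195-6, and 11.5 CPM in control 303-3. It did not pass between the genotypes (log2 0.05, SE 0.31, adjusted p = 0.921, edgeR). The 4 GINS genes had changes of 0.32 (Gins1), 0.37 (Gins2), 0.34 (Gins3) and 0.29 (Gins4), all above the members' median of 0.16, and none passed. Gins2 shares up to 2758 bases of exon with Gse1 on the opposite strand.

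The replicative polymerases and primase had the smallest median of the 9 roles, 0.07 on the log2 scale, and 0 of 9 genes passed. The catalytic subunits Pola1, Pold1 and Pole had log2 changes of -0.02, 0.07 and -0.05 in mutants, and the accessory subunits Pola2, Pold2, Pold3 and Pole2 had 0.23, 0.47, 0.16 and -0.16. The primase genes Prim1 and Prim2 stood at 0.06 and 0.16.

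Pcna, the sliding clamp that holds polymerases on DNA, was at 227, 88.2 and 153 CPM in mutants 260-1, 195-3 and 303-2, against 166 and 167 CPM in controls 260-2 and 260-3, 125 and 138 CPM in controls 195-2 and 195-6, and 122 CPM in control 303-3. Its log2 change was 0.11, SE 0.18, adjusted p = 0.702 by edgeR. The clamp loader genes Rfc1 to Rfc5 had changes between 0.11 (Rfc5) and 0.35 (Rfc4), and none passed. Fen1, which trims Okazaki fragments, and Lig1, which seals them, had changes of 0.19 and 0.24.

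Rrm2, the small subunit of ribonucleotide reductase, which makes deoxynucleotides, was at 136, 33.3 and 71.4 CPM in mutants 260-1, 195-3 and 303-2, against 93.2 and 88.8 CPM in controls 260-2 and 260-3, 63.6 and 74.7 CPM in controls 195-2 and 195-6, and 59.7 CPM in control 303-3. Tyms, thymidylate synthase, was at 45.4, 19.5 and 32.04 CPM in mutants 260-1, 195-3 and 303-2, against 33.6 and 34.3 CPM in controls 260-2 and 260-3, 24.3 and 29.6 CPM in controls 195-2 and 195-6, and 25.4 CPM in control 303-3. Both were highest in mutant 260-1 and lowest in mutant 195-3. Their log2 changes were 0.01, SE 0.29, adjusted p = 0.979 for Rrm2 and 0.13, SE 0.16, adjusted p = 0.596 for Tyms (edgeR). Rrm1, the large subunit, had 0.10, and the transcription factors E2f1 and E2f2 had 0.22 and -0.19.

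Within litters the mutants went in different directions. On the log2 CPM scale, the median difference of the 47 members between the mutant and its litter's controls was 0.46 in litter 260 (range 0.21 to 0.98), -0.35 in litter 195 (-1.15 to 0.59) and 0.33 in litter 303 (-0.06 to 0.96). The medians over all genes were 0.01, -0.00494 and 0.00587 in the same order. Mutant 260-1 was above both its controls for 47 of 47 members, against 42.1% of all genes. Mutant 303-2 was above its control for 44 of 47 (all but Pole, Pole2 and E2f2), against 50.5%. Mutant 195-3 was below both its controls for 37 of 47, against 40.5%, and above both for 4, Orc6, Rpa3, Ccne1 and Slbp, against 38.4%.

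These 4 were the members higher in the mutant in 3 of 3 litters (19.4% of genes were). A mutant level above all litter controls in litters 260 and 303 and below both in litter 195 was seen in 34 of 47 members, against 7.38% of genes. All 3 mutants were above all 5 controls for 2 members, Orc6 and Rpa3 (11.3% of genes), and below all 5 controls for 0 (8.61% of genes). Control littermates differed too: control 195-6 was above control 195-2 for 46 of 47 members (48.6% of genes), with a median difference of 0.23, whereas control 260-3 was above control 260-2 for 26 of 47 (50.8% of genes), with a median of 0.01.

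**Figure D3:**
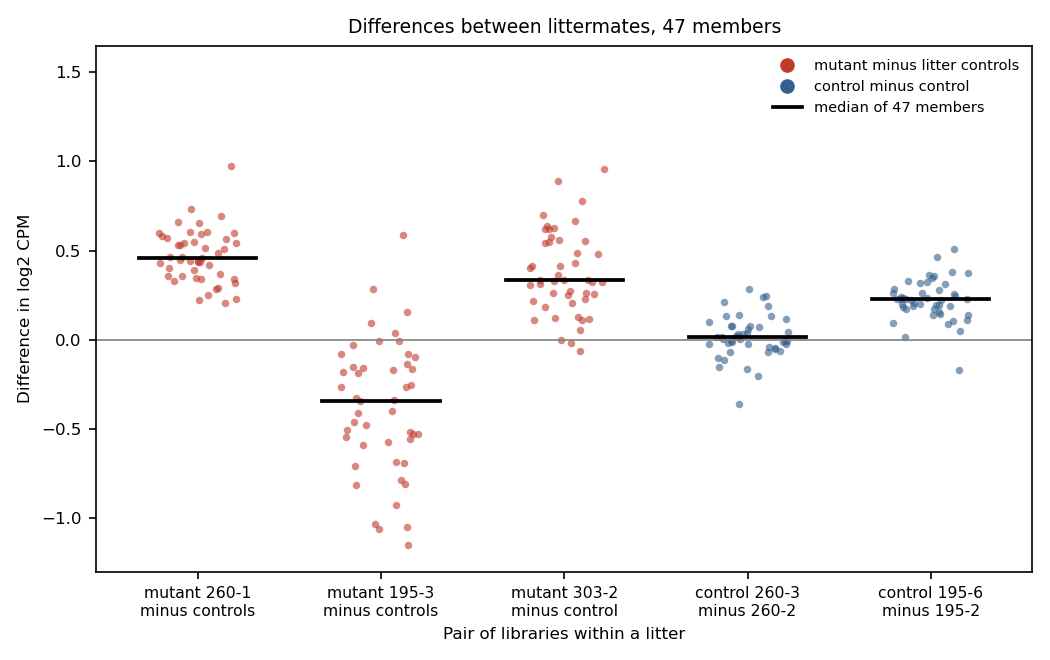
Log2 CPM difference within a litter for each of the 47 members (points), with the median as a bar. The first 3 columns set a mutant against the average of the controls in its litter, with medians of 0.46, -0.35 and 0.33, and the last 2 are control pairs, with medians of 0.01 and 0.23.

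The size of the litter difference varied with the gene. Cdc45 differed from litter controls by 0.61 in litter 260, -1.15 in litter 195 and 0.31 in litter 303, Rrm2 by 0.58 in litter 260, -1.05 in litter 195 and 0.26 in litter 303 and Mcm10 by 0.54 in litter 260, -1.06 in litter 195 and 0.25 in litter 303. Slbp differed by 0.44 in litter 260, 0.28 in litter 195 and 0.34 in litter 303, and Nasp, a chaperone that carries histones to chromatin, by 0.44 in litter 260, -0.08 in litter 195 and 0.41 in litter 303. By role, the median in litter 195 was -0.56 for the MCM genes, -0.58 for the G1/S cyclins and E2F factors and -0.54 for the nucleotide genes. It was -0.17 for GINS and Cdc45, -0.16 for the clamp, loader and RPA genes and 0.10 for the pair Slbp and Nasp.

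Each litter holds 1 mutant, so these differences within a litter have no replicate of the mutant and are given as a description. They also take the middle number of the title as the litter, which the labels do not define.

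The interaction of genotype with stage, that is the mutant effect at E14.5 minus that at E13.5, called 0 of 47 members by edgeR, with 0.104% of genes called in either direction. At an unadjusted p under 0.05 there were 6 of 47 members by edgeR, against 1622 of the 17357 genes tested. DESeq2 gave 12 members at that cut, with the number over all genes not at hand, and its adjusted test also called 0. Each of the 47 interaction terms was negative, with a median of -0.47. Without mutant 303-2 a single mutant is left at each stage, with mutant 195-3 alone at E14.5. The spread then comes from the controls only, and spread between mutants is not measured. In that fit the median was -0.80, and 29 members were lower (3.09% of genes lower). Between the E14.5 litters, 303 against 195 with genotype in the model, 0 members were called (0% of 17415 genes) and 0 by DESeq2. At an unadjusted p under 0.05 there were 0 members and 501 genes in all by edgeR. Without control 303-3 litter 303 is mutant 303-2 alone, so with genotype in the model it is compared with mutant 195-3 alone. The spread is then that between the controls of litter 195, and spread between mutants is not measured. That fit gave a median change of 0.54 and called 18 members higher in litter 303 (2.68% of genes). These calls do not separate the litters from the individual mutants.

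At E14.5, 8 of the 47 members were lower than at E13.5 and 0 higher in the same model: E2f2, Slbp, Lig1, Gmnn, Nasp, Ccne1, Cdt1 and Gins1. The members' 17% stands against 3.26% of all genes, 2.24% higher and 1.01% lower. All 47 changes were negative, from -1.03 (E2f2) to -0.21 (Orc6), with a median of -0.56, against 0.00125 over all genes. The E13.5 samples are a single litter, so stage and litter cannot be told apart.

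E2f2, an activator of S phase genes (ENSMUSG00000018983.9, chromosome 4, 136172394 to 136196057, plus strand), was at 7.09 and 9.05 CPM in the E14.5 mutants and 10.7, 12.6 and 9.46 CPM in the E14.5 controls, against 21.8 CPM in the E13.5 mutant and 18.4 and 19.4 CPM in the E13.5 controls. All 5 E14.5 values lay below all 3 E13.5 values. The log2 change was -1.03, SE 0.15, adjusted p = 0.0261 by edgeR. Slbp changed by -0.44, SE 0.06, adjusted p = 0.0261 (edgeR). Its stages met without overlap, with 63.5 CPM in mutant 303-2 the highest value at E14.5 and 64.4 CPM in control 260-2 the lowest at E13.5.

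Lig1, DNA ligase I (ENSMUSG00000056394.17, chromosome 7, 13277283 to 13311433, plus strand), was at 56.7 and 77.1 CPM in the E14.5 mutants and 58.0, 61.6 and 63.6 CPM in the E14.5 controls, against 109.8 CPM in the E13.5 mutant and 78.1 and 84.6 CPM in the E13.5 controls. The stages did not overlap, and the log2 change was -0.52, SE 0.10, adjusted p = 0.0415 (edgeR). Gmnn (ENSMUSG00000006715.11, chromosome 13, 24751845 to 24761923, minus strand) changed by -0.93, SE 0.19, adjusted p = 0.0455, with 14.05 CPM in mutant 303-2 the highest value at E14.5 and 16.0 CPM in both controls the lowest at E13.5. Nasp, Ccne1, Cdt1 and Gins1 changed by -0.44, -0.57, -0.80 and -0.65, with adjusted p between 0.0459 and 0.0487 (edgeR). Larger changes with larger errors did not pass, among them Cdc6 at -0.98 (SE 0.24), Mcm10 at -0.92 (SE 0.26) and Mcm3 at -0.85 (SE 0.26).

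**Figure D4:**
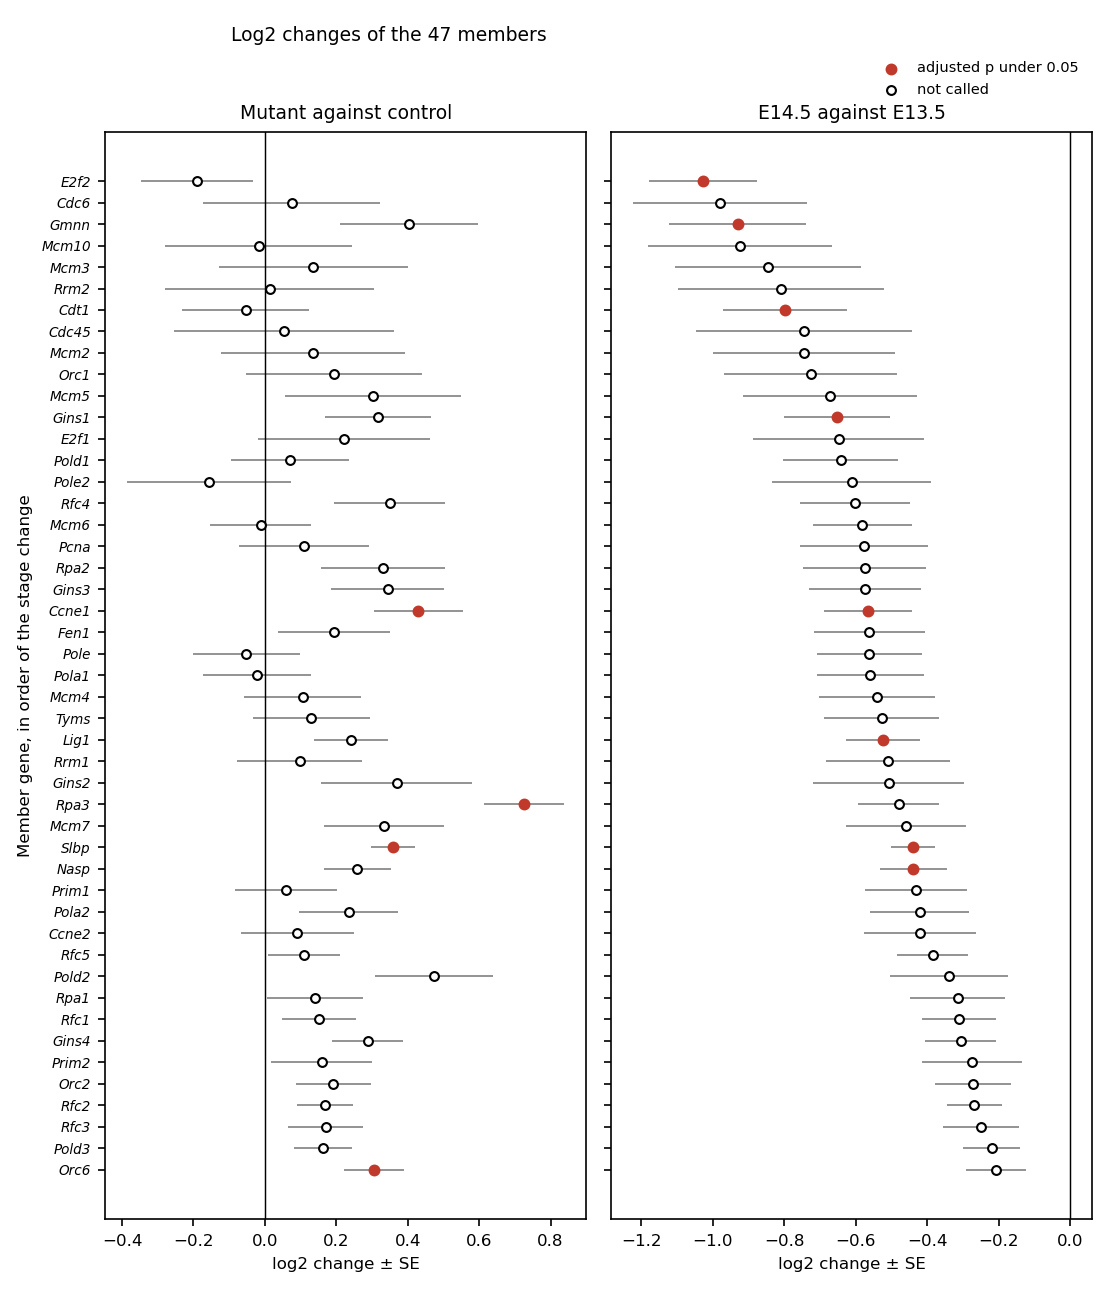
Log2 change ± SE of the 47 members in mutants against controls (left) and at E14.5 against E13.5 (right), from 1 model over 8 libraries, with filled points at adjusted p under 0.05. Changes between genotypes are spread around 0.16, and all 47 stage changes are negative.

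By role, the stage medians were -0.76 for origin recognition and licensing (6 genes), -0.67 for the MCM genes (7), -0.61 for the G1/S cyclins and E2F factors (4) and -0.57 for GINS and Cdc45 (5). They were -0.54 for Fen1 and Lig1, -0.53 for the nucleotide genes (3), -0.44 for Slbp and Nasp, -0.43 for polymerases and primase (9) and -0.38 for the clamp, loader and RPA genes (9). The 15 members with an E2F word in the promoter had a median of -0.61 and 3 stage calls, and the 23 with a window and no word had -0.51 and 3. For genotype the medians were 0.14 with a word and 0.19 without, with 0 and 4 calls.

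Controls alone showed the same direction. In the 5 controls, 20 of 47 members were lower at E14.5 and 0 higher (2.27% of genes lower, edgeR), and all 47 changes were negative, with a median of -0.39. All 3 E14.5 controls were below both E13.5 controls for 41 of 47 members (17.9% of genes), the others being Orc6, Gins2, Prim1, Prim2, Pold2 and Ccne2, and above both for 0 (18.5% of genes). Mcm3 averaged 41.8 ± 5.71 CPM in the E14.5 controls (SD, n = 3) and 64.5 and 68.2 CPM in the E13.5 controls, a log2 change of -0.67 in controls (SE 0.10, adjusted p = 0.00366, edgeR). The corresponding change of E2f2 was -0.80 (SE 0.13, adjusted p = 0.00446) and that of Gmnn -0.74 (SE 0.14, adjusted p = 0.0122).

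Over all 8 libraries DESeq2 called 35 members lower (6.39% of genes lower). Without mutant 195-3 edgeR called 31 (3.28% of genes lower) and without control 195-6 it called 19 (2.8% of genes lower). Without mutant 260-1, control 260-2, control 260-3, control 195-2 or control 303-3 it called 0, fits in which at most 6 genes of all those tested were called lower, and without mutant 303-2 it called 6. All 47 changes were negative in each of these 8 fits.

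**Figure D5:**
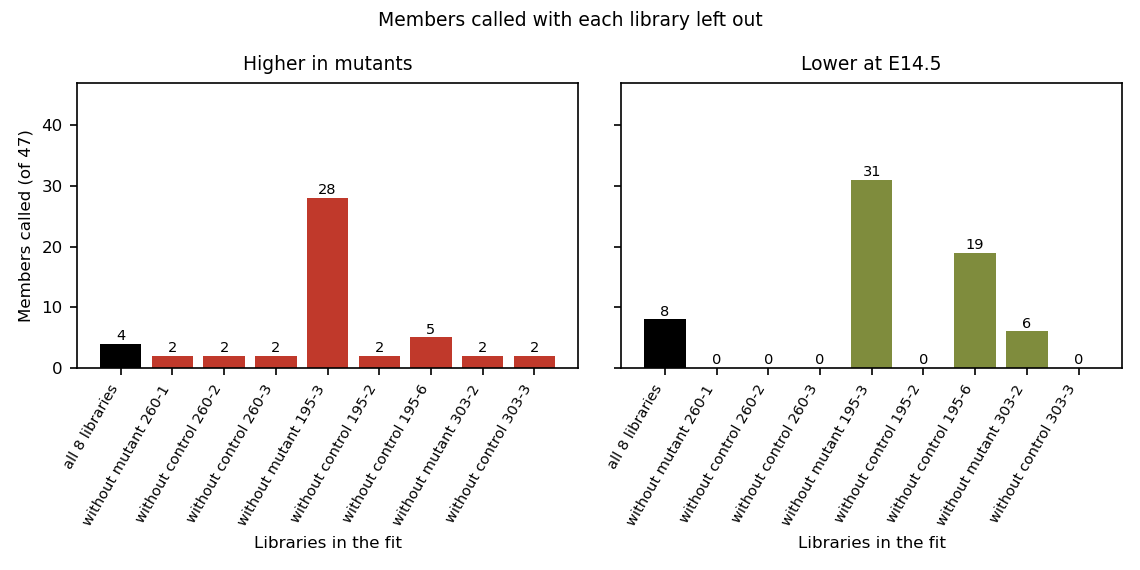
Number of the 47 members called with all 8 libraries (black) and with each library left out, for higher in mutants (left) and lower at E14.5 (right). Leaving out mutant 195-3 raises both counts, to 28 and 31.

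Other genes of the cell cycle were taken from lists that exclude the 47. Of 39 further replication genes 2 (against 10.9% of all genes) were higher in mutants, with a median log2 change of 0.13: Wdhd1, which couples helicase and polymerase alpha (0.31), and Rnaseh2c, a subunit of the enzyme that removes ribonucleotides from DNA (0.90). Of 18 nucleotide synthesis genes the purine enzyme gene Gart alone was higher (0.30; median 0.15). Of 21 further G1/S genes 4 were higher, the D-type cyclins Ccnd1 (0.59) and Ccnd3 (0.42) and the E2F family members E2f5 (0.44) and E2f6 (0.22), with a median of 0.13. S phase checkpoint genes had 0 of 20 called and a median of 0.10.

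These counts depended on single libraries. Without mutant 195-3, 12 further replication genes, 10 nucleotide synthesis genes, 11 further G1/S genes and 4 checkpoint genes were higher (14.3% of genes). Without mutant 260-1 the counts were 0, 0, 1 and 0 in the same order (5.99% of genes), and the medians of the replication, G1/S and checkpoint lists turned to -0.01, -0.04 and -0.12. Without mutant 303-2 they were 1, 0, 0 and 0 (3.65% of genes), with medians of 0.06, 0.04, -0.05 and -0.01. Without control 195-6 there were 5 further replication genes, and without control 260-2, 260-3, 195-2 or 303-3 there were 1 of these, 0 nucleotide genes and 2 or 3 G1/S genes. No gene of these 4 lists was lower in mutants by edgeR with all 8 libraries. DESeq2, the E14.5 samples alone and the fit without mutant 260-1 each gave 1 further G1/S gene lower, and without mutant 260-1, control 195-6 and mutant 195-3 there were 2, beside 1 further replication gene.

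Of 17 tested inhibitors of the cycle, 5 were higher in mutants (10.9% of all genes were) and 0 lower, with a median of 0.24. The count was 10 without mutant 195-3 (14.3% of genes). It was 3 without mutant 303-2 or control 260-2, 195-2 or 303-3 (632 to 900 genes in all). Without one of the other 3 libraries it was 4 or 5 (1058 to 1813 genes in all). Cdkn1c, the cyclin-dependent kinase inhibitor p57, was at 307, 281 and 392.3 CPM in mutants 260-1, 195-3 and 303-2, against 182, 224, 153, 173 and 149 CPM in controls 260-2, 260-3, 195-2, 195-6 and 303-3. All 3 mutants lay above all 5 controls (log2 0.92, SE 0.14, adjusted p = 0.00533, edgeR). Cdkn2d (0.58), Gadd45a (0.58), Lin37 (0.38) and Fzr1 (0.24) passed as well. The median of these 17 genes was 0.35 in litter 260, 0.11 in litter 195 and 0.39 in litter 303, while that of 35 G2 and mitosis genes was 0.61, -0.88 and 0.22.

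The sum of the G2 and mitosis genes was, like that of the replication genes, above the litter controls in mutants 260-1 and 303-2 and below them in mutant 195-3. It was 2840, 787 and 1690 CPM in mutants 260-1, 195-3 and 303-2, against 1990, 1860, 1300, 1590 and 1480 CPM in controls 260-2, 260-3, 195-2, 195-6 and 303-3. By median, mutant 260-1 differed from its controls by 0.45 (further replication genes) and 0.36 (further G1/S genes), mutant 195-3 by -0.25 and -0.25, and mutant 303-2 by 0.21 and 0.22. Between genotypes Bub3, a spindle checkpoint gene, was the one gene called of the 35 (0.27), against 10.9% of all genes higher. The list median was 0.11. Without mutant 195-3, 25 of the 35 were higher (median 0.41), against 14.3% of genes. Without control 195-6 the count was 1, with 1813 of all genes higher. Without any other library it was 0, with 632 to 1809 of all genes higher. The medians were -0.24 without mutant 260-1 and -0.13 without mutant 303-2. Between stages Cdc25b, a phosphatase that starts mitosis, was the one gene called lower (median -0.74), against 1.01% of all genes. The stage count was 29 without mutant 195-3 (3.28% of genes lower), 24 in controls alone (2.27%) and 14 by DESeq2 (6.39%). It was 1 without control 195-6 (2.8%) or mutant 303-2 (207 of 17676 genes). Without any other library it was 0, fits in which at most 6 genes in all were lower.

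At E14.5 the medians of the further lists were negative as well, at -0.46 for replication (Timeless and Wdhd1 called lower), -0.38 for G1/S (Ccnd1 and E2f3), -0.43 for the S phase checkpoint, with 20 of 20 changes negative, -0.23 for nucleotide synthesis (0 called) and -0.18 for the inhibitors (Gadd45g). No gene of these lists was higher at E14.5. Over all genes 1.01% were lower. Without mutant 195-3 the counts lower were 14 for replication, 8 for G1/S, 5 for nucleotide synthesis and 3 for the inhibitors (3.28% of genes). Without control 195-6 they were 8, 2, 1 and 3 (2.8% of genes). Without mutant 303-2 they were 2, 1, 1 and 1, and without any one of the other 5 libraries 0 in each list. In those 5 fits at most 6 genes in all were lower.

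Markers of cell type varied beside these results. The sum of 14 neural progenitor genes was 3190, 2490 and 2760 CPM in mutants 260-1, 195-3 and 303-2. In the controls it was 2050 to 2620 CPM. In mutants 7 of 14 were higher and 0 lower (10.9% and 9.74% of all genes), and 6 of 14 were lower at E14.5 (1.01% of all genes). The count higher was 3 without mutant 303-2 or control 195-2, 4 without mutant 260-1 or control 260-2 or 303-3, and 7 to 9 without one of the other 3. The count lower at E14.5 was 6 without mutant 303-2, 8 without mutant 195-3 or control 195-6, and 0 without any other library. In those last fits at most 6 genes in all were lower. Mutant 195-3, lowest for 33 of the 47 members, had 7 of the 14 progenitor genes above both controls of its litter (38.4% of all genes were). Among them were the abundant Fabp7 (554.5 CPM, against 369.3 and 394.3), Vim and Id4. Mutant 195-3 had 4 below both (40.5% of all genes were), Pax6, Nes, Sox9 and Notch1.

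The sum of 17 neuron genes was 8320, 11600 and 10500 CPM in the 3 mutants, against 10100 to 11700 CPM in the controls. With all libraries 1 of the 17 was higher and 5 lower in mutants (9.74% of genes were lower), with a median of -0.18. Without mutant 260-1, the library with the lowest sum, 1 was higher and 1 lower (5.89% of genes lower) and the median was 0.04. Without mutant 303-2, 0 were higher and 3 lower (731 of 17676 genes lower). Without mutant 195-3, 0 were higher and 7 lower (2467 of 17641 genes lower), with a median of -0.37. Without any 1 of the controls 4 or 5 were lower (685 to 1713 genes lower in all). The part of these markers in the results was not tested.

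Without mutant 260-1, control 195-6 and mutant 195-3, 25 of 47 members were higher in mutants (14% of genes) and 35 lower at E14.5 (5.15% of genes), with 1 mutant and 4 controls left, so the lone mutant is assumed to vary as the controls do. In that fit 9 of 39 further replication genes, 7 of 21 further G1/S genes, 10 of 17 inhibitors, 13 of 35 G2 and mitosis genes and 9 of 14 neural progenitor genes were higher in mutants. Regional genes still differed without the 3 libraries, with median genotype changes of -1.405 (telencephalon) and 0.5878 (Hox). Without mutant 260-1 and control 195-6 alone, 2 members (984 of 17454 genes) were higher in mutants, and the median genotype change was 0.08. At E14.5, 0 members and 7 genes in all were lower. All 47 members had negative stage changes in that fit, with a median of -0.45.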

How the data were processed

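Per the labels' protocols, total RNA of embryonic brain was column-purified with DNase digestion and made into libraries with a TruSeq RNA kit, which selects polyadenylated RNA and does not mark strand. Per the submitters' processing notes mm10 and GRCm38 were the builds and TopHat2 2.0.9, HTSeq 0.5.4p5 and edgeR 3.4.2 the tools, without their order or role. The deposited table holds expected counts, which estimate unnormalised reads per gene, and 66.0% to 68.9% of a library's values are whole numbers. They were rounded. Identifiers were matched to GENCODE M21 (34652 of 34866), which gave symbols, coordinates on GRCm38, transcript lengths and exon overlaps.

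Counts were tested in R 4.3.3 with edgeR 4.0.16: filterByExpr on genotype with a minimum count of 10, TMM factors, and the robust quasi-likelihood F test with stage and genotype over 8 samples and Benjamini-Hochberg adjustment. CPM are TMM-scaled, and log2 CPM uses a prior count of 2. The common biological coefficient of variation was 14.27%. Simulated counts had 100 genes changed at each fold, no litter or regional differences and the same spread in mutants and controls. On these the genotype test recovered 52% of 1.5-fold and 84% of 2-fold changes (17186 genes, 8 false calls). The stage test recovered 57% and 88% (17170 genes, 5 false calls). The 47 members varied more in mutants than in controls, so these shares need not hold for them. No pair of libraries agreed within sampling noise (chi-square per degree of freedom 12.7 to 148 over genes). Alternatives were RLE and upper quartile factors, no filter, DESeq2 1.42.0, an offset for length and GC content (mgcv 1.9.3), single libraries left out, no stage term, E14.5 alone, controls alone, a replicate block, and libraries low in regional genes left out. The members, gene lists and tests were chosen with earlier results of these data known. Values in every sample are given for Mcm2 to Mcm7, Pcna, Gmnn, Cdt1, both E-type cyclins, Rrm2, Tyms, the members called for genotype and the 4 of smallest p for stage, and further members were named after their values were seen. The stage calls of the S phase checkpoint list are not reported here.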

Additional observations from a re-analysis of the deposited data

Results flagged for a closer look

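For 34 of the 47 replication and G1/S genes, mutants 260-1 and 303-2 were above all controls of their litters while mutant 195-3 was below both of its own. This direction by litter was not tested in that form, and 7.38% of all 17357 genes showed it. The genes outside the pattern include the 4 that were higher in the mutant in every litter, Rpa3, Slbp, Orc6 and Ccne1.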

How the results depend on the processing

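With 4 members higher in mutants as the starting count, the other fits gave 2 with upper quartile factors, 1 without the stage term, 1 in the E14.5 samples alone, 25 without mutant 260-1, control 195-6 and mutant 195-3, 2 without the first 2 of these, and 2 to 28 with single libraries left out. RLE factors gave 4, no filter 4, DESeq2 6 and the length and GC offset 5, and 0 members were lower in any of these fits. The number of all genes higher, 1885 of 17357 at the start, was 632 to 2517 with single libraries left out. Of the same 17357 genes, 1240 were higher with upper quartile factors, 890 without the stage term, 1783 with RLE factors and 2992 with the offset. It was 766 of 17415 in the E14.5 samples alone and 984 of 17454 without mutant 260-1 and control 195-6. Without the filter it was 1708 of 26909, and by DESeq2 2367 of 16991. The median genotype change was 0.32 without those 3 libraries and 0.012 to 0.32 with single libraries left out.

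The count lower at E14.5, 8, became 35 by DESeq2, 20 in controls alone, 35 without the 3 libraries and 0 to 31 with single libraries left out. It was 0 without the 2 libraries, where 7 of 17454 genes were lower. The median stage change was -0.39 in controls alone, -0.45 without the 2 libraries and -0.61 to -0.39 with single libraries left out. Members lower for the interaction were 0 to 29 and members higher in litter 303 0 to 18 with single libraries left out. The 29 and the 18 each come from a fit in which the spread was taken from controls alone.

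Genotype changes near 0 turned sign, all of them uncalled. In the E14.5 samples alone the log2 changes were -0.16 (Ccne2), -0.087 (Mcm2), -0.045 (Mcm3), -0.10 (Mcm4), -0.085 (Pcna), -0.33 (Rrm2) and -0.036 (Tyms). With the length and GC offset Cdt1 was at 0.000846, Mcm6 at 0.083 and Rrm2 at -0.00505, and with upper quartile factors Rrm2 was at -0.046. Without the 3 libraries Cdt1 was at 0.067 and Mcm6 at 0.12. Without the 2 low in Hox genes, Ccne2, Mcm4, Pcna and Rrm2 were at -0.079, -0.035, -0.034 and -0.24. With single libraries left out the ranges were -0.16 to 0.25 (Ccne2), -0.30 to 0.13 (Cdt1), -0.11 to 0.41 (Mcm2), -0.15 to 0.42 (Mcm3), -0.10 to 0.30 (Mcm4), -0.19 to 0.15 (Mcm6), -0.087 to 0.32 (Pcna), -0.34 to 0.32 (Rrm2) and -0.038 to 0.32 (Tyms). The cause was not tested.

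With the litter number as a replicate block, 3 members (Orc6, Rpa3 and Slbp) and 1382 of 17357 genes in all were higher. In that fit Ccne1 was at 0.40 (adjusted p = 0.0578, edgeR) and Rrm2 turned to -0.032. In the main fit the numbers were not treated as pairing the samples, and the correlations that bear on such a pairing were mixed. Deviations from the group means correlated at 0.20 in litter 260, 0.15 in litter 303 and 0.03 in litter 195. Mutant 195-3 correlated more with the control of litter 303 (0.233). The differences within a litter use the numbers all the same and carry this limit, also in the flagged result. The interaction could not be fitted without mutant 260-1, the only mutant at E13.5. Depth limited none of the members, and 3 mutants from 3 litters limit every genotype value.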

Other observations

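Genes of intermediate progenitors, the dividing daughters of radial glia, were by their sum highest in mutant 260-1 and lowest in mutant 195-3, as the replication genes were. The sum of 8 such genes was 552, 224 and 372 CPM in mutants 260-1, 195-3 and 303-2, against 434, 442, 320, 402 and 348 CPM in controls 260-2, 260-3, 195-2, 195-6 and 303-3. Of these genes, Btg2 and Gadd45g are also in the list of inhibitors of the cycle. Between genotypes 1 of the 8 was higher and 0 lower (10.9% and 9.74% of all genes), and 1 was lower at E14.5 (1.01% of all genes). Without mutant 195-3, 5 were higher in mutants (14.3% of genes) and 4 lower at E14.5 (3.28% of genes). Without mutant 260-1, 0 were higher and 1 was lower in mutants (5.99% and 5.89% of genes). In that fit 0 were lower at E14.5 (6 of 17655 genes).

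Other cell type markers varied between libraries in other ways. The 8 endothelial genes summed to 220, 309 and 289 CPM in the 3 mutants and 224 to 270 CPM in the controls, and the 8 microglia genes to 54.9, 71.8 and 96.9 CPM and 63.6 to 75.8 CPM. The 9 erythroid genes summed to 1250, 1090 and 2420 CPM in the mutants and 1080 to 1660 CPM in the controls, the 9 genes of meninges and mesenchyme to 562, 836 and 982 CPM and 518 to 763 CPM, and the 7 choroid plexus genes to 264, 949 and 361 CPM and 533 to 673 CPM. The 8 genes of cerebellum and rhombic lip summed to 438, 673 and 540 CPM in the mutants and 426 to 484 CPM in the controls.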
